A study of Mus musculus with 12 samples.

Results

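The antioxidant and NRF2 target genes are a list of 40 mouse genes whose products detoxify reactive oxygen species and electrophiles, make or recycle the thiols and NADPH used for that, handle haem and iron, or control the transcription factor NRF2. Members were listed by name, but with earlier results of these data known, so the counts below describe the list and do not test it. Every probe whose RefSeq accession maps to a listed symbol was taken, and the brightest probe kept stood for its gene. All 40 were among the 22911 gene symbols with a probe on the array, and 39 were among the 13283 genes tested, for which some group had all 3 of its arrays well above background. The exception was Sod3, the secreted superoxide dismutase, which was well above background on only 2 of 12 arrays, both of them KO LPS arrays.

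The mRNA of macrophages was hybridised to one-colour Agilent arrays. The cells came from the abdominal cavity of C57/BL6 mice and were grown in DMEM with 10% FBS. The 4 groups held 3 arrays each. They were GPR15 knockout (KO) cells given LPS, KO cells given PBS, wild-type (WT) cells given LPS and WT cells given PBS, with LPS at 100 ng/ml and an exposure of 4 h. GPR15 is a G protein-coupled receptor of leukocytes, and LPS is the bacterial outer-membrane component that activates macrophages through TLR4. The age and sex of the mice, how the KO allele was made and whether replicates came from separate mice are not given in the sources used here, so p-values measure the spread between these arrays, which may be technical.

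NRF2, encoded by Nfe2l2, is a transcription factor that KEAP1 holds in the cytoplasm and hands to the proteasome. Oxidants and electrophiles modify KEAP1, NRF2 then accumulates, pairs with a small MAF protein and binds antioxidant response elements near genes of glutathione, thioredoxin, NADPH and haem metabolism. In macrophages, LPS starts an oxidative burst and an NF-kB programme, and NRF2 is known as a brake on inflammatory genes. The level of Nfe2l2 mRNA says little about NRF2 activity, which is set mostly at the protein.

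Promoter sequences were read from RefSeq for build GRCm38.p6 and matched by symbol for 35 of the 40 members. The 250 bases before each start were searched on both strands for TGACNNNGC, the core of the antioxidant response element, and for TGANTCAGC, a form of it that contains the AP-1 letters TGANTCA. A promoter with TGACTCAGC matches both. The first motif was found in 7 of 35 members (20.0%), against 11.5% of all 27025 genes with a promoter sequence, and the second in 4 of 35 (11.4%), against 1.17%. A gene with several starts was counted once, as a match if any of its starts matched. The 4 with the second motif, Srxn1, Prdx1, Osgin1 and Gstp1, all fell with LPS in both genotypes, as described below. It was found in 4 of the 19 members with a promoter that fell in both genotypes and in 0 of the other 16. The list was chosen as antioxidant and NRF2 target genes, so its excess of matches is no independent finding. The split rests on 4 genes, uses the LPS calls of these same arrays and was not tested. The first motif did not split this way, with 4 of 19 (21.1%) and 3 of 16 (18.8%). For these 4 the 150 bases before the start are shown with the match in capitals. They are chr2:152105374-152105523 (+ strand), chr4:116685449-116685598 (+), chr8:119436997-119437146 (+) and chr19:4037913-4038062 (- strand). In Prdx1 and Osgin1 the motif reads on the opposite strand, so that the capitals show its reverse complement.
Srxn1: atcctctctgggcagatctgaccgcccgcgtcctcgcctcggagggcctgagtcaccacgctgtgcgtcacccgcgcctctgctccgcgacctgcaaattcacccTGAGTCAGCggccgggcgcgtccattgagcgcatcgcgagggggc
Prdx1: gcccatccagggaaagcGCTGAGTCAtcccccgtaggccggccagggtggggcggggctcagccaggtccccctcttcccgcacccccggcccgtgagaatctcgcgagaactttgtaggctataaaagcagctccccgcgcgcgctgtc
Osgin1: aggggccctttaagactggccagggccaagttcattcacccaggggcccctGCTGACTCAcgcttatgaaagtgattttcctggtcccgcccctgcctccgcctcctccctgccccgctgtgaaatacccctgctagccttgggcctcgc
Gstp1: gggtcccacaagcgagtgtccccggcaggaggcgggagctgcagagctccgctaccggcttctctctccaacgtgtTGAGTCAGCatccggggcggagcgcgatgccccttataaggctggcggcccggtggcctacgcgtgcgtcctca
Txnrd1 and Sod2, which behaved differently from these 4, are shown for comparison. In Txnrd1 (chr10:82859056-82859205, +, 1 of 3 starts in the table) the capitals mark a TGACNNNGC match on the opposite strand. In Sod2 (chr17:13007689-13007838, +) they mark a match to the NF-kB consensus, which was found in 6 of 35 members (17.1%) and in 8.23% of all genes with a promoter sequence. The 6 were Cat, Ftl1, Gpx1, Prdx1, Sod2 and Sqstm1, of which Cat, Gpx1 and Prdx1 fell with LPS in both genotypes. The share was 3 of 19 (15.8%) among members that fell in both and 3 of 16 (18.8%) among the others.
Txnrd1: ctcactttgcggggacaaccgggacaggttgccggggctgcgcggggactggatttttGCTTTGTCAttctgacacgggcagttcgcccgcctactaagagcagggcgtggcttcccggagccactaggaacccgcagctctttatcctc
Sod2: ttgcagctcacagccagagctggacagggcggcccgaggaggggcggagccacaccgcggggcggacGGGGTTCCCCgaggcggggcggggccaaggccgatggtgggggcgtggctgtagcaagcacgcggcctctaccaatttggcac
A match describes the letters of the window. Binding was not measured.

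Values below are log2 of the processed signal minus the 75th percentile of that array, so they compare arrays for one gene and do not compare genes. That percentile was a signal of 469.6 to 574.1, between 48.8% and 57.1% of spots were well above background, and 0 were saturated. All 10 macrophage markers were well above background on all 12 arrays, with summed levels of 753 to 862 times the 75th percentile. The sums overlapped between LPS and PBS, but 7 of the 10 were called lower with LPS in each genotype. The steepest were Csf1r (-1.13 in KO cells and -1.28 in WT cells) and Mertk (-1.05 in KO cells and -1.41 in WT cells). Called higher were 3 in KO cells, Cd14 (0.48), Cebpb (0.48) and Icam2 (0.30), and 2 in WT cells, Cd14 (0.48) and Cebpb (0.29). B-cell markers were present as well, and their sum was lower with LPS, at 56.6 to 57.0 in KO LPS and 123 to 130 in KO PBS, and 70.5 to 84.4 in WT LPS and 144 to 183 in WT PBS. The sum of T-cell markers was lower with LPS too, at 11.1 to 12.2 in KO LPS and 17.9 to 19.6 in KO PBS, and 10.6 to 12.2 in WT LPS and 19.3 to 25.7 in WT PBS. That sum does not stand for each marker. In KO cells 2 of 6 tested were called lower and 1, Cd247, higher (0.82). In WT cells 5 of 6 were called lower and 0 higher. The sum of mast-cell markers was higher with LPS in KO cells, at 74.5 to 76.4 in KO LPS and 58.6 to 67.2 in KO PBS. In WT cells it overlapped, at 85.6 to 105.7 in WT LPS and 67.3 to 89.6 in WT PBS. Of 6 mast-cell markers tested, 2 were called higher and 1 lower in KO cells, and 2 higher and 2 lower in WT cells. The part that other cells play in the members' values was not tested, and fewer cells of a type cannot be told apart from less RNA per cell. Slide 2 carried the 3 KO LPS arrays together with KO PBS replicate 3, and slide 1 carried the other 8. Gpr15 was well above background on 0 of 12 arrays, so the genotype labels could not be checked with it. Xist was well above background on 0 of 6 KO arrays and 6 of 6 WT arrays, and the Y-linked Ddx3y on 6 of 6 KO arrays and 0 of 6 WT arrays, so that genotype cannot be told apart from the sex of the cells.

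The first comparison asks how 4 h of LPS changed these genes. Most of the list fell in both genotypes. In KO cells 26 of 39 members (66.7%) fell and 4 rose, and in WT cells 23 of 39 (59.0%) fell and 6 rose (limma, Benjamini-Hochberg adjusted p below 0.05). Changes are given as LPS minus PBS or KO minus WT, with the standard error of the fit after ± (n = 3 arrays per group). Of all genes tested, 67.0% were called in KO cells, with 32.0% lower and 35.1% higher, and 64.7% in WT cells, with 31.0% lower and 33.7% higher. The median log2 change of the members was -0.61 in KO cells and -0.38 in WT cells, against 0.04 and 0.03 over all genes tested. With quantile normalization in place of the percentile the counts were 30 down and 2 up in KO cells, and 29 down and 2 up in WT cells.

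Most called members were called in both genotypes. The 2 LPS comparisons share no array, and 23 members fell in both, 4 rose in both and 0 were called in opposite directions. No such counts over all genes tested are given here, so this agreement is not shown to be particular to the list. Sqstm1, Gpx3 and Txnip fell in KO cells and were not called in WT cells, and Fth1 and, on its brighter probe, Txn2 rose in WT cells and were not called in KO cells. None of these 5 had a called difference between the genotypes in its LPS change. Of the 23 members lower in both, 22 stayed so under every alternative setting and with each array left out, and the other, Gsr, lost its call in KO cells under several. The LPS changes in KO and WT cells correlated at r = 0.96 across the 39 members and 0.88 across all genes tested, which are not independent replicates.

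**Figure D1:**
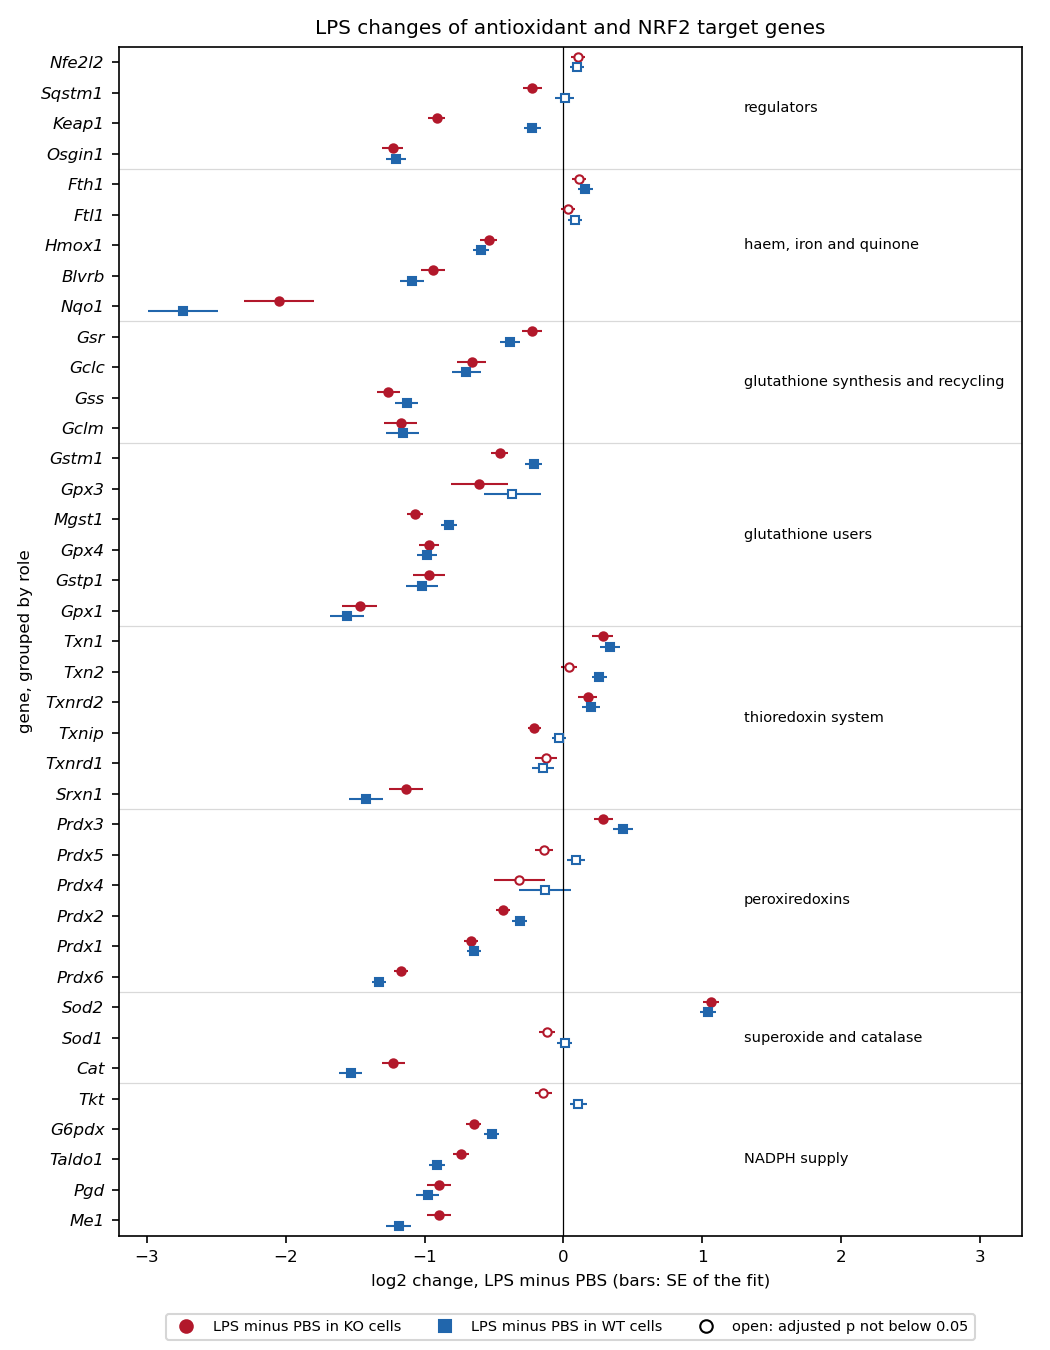
The x axis gives the log2 change, LPS minus PBS, for the 39 members tested, in KO cells (red circles) and WT cells (blue squares), grouped by role. Bars are standard errors of the limma fit, and open symbols did not pass an adjusted p of 0.05. The glutathione groups and most NADPH genes lie left of 0 in both genotypes, and Sod2 lies farthest right at 1.06 in KO cells and 1.04 in WT cells.

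Among the regulators, Nfe2l2 mRNA was not called with LPS. Its values were 5.10, 5.24 and 5.15 in KO LPS and 4.99, 5.09 and 5.10 in KO PBS, and 5.05, 5.06 and 5.09 in WT LPS and 4.95, 5.04 and 4.92 in WT PBS. The LPS arrays lay just above the PBS arrays in each genotype, with changes of 0.11 ± 0.05 in KO cells (adjusted p = 0.0815, limma) and 0.09 ± 0.05 in WT cells (adjusted p = 0.121). Under quantile normalization the WT change was -0.16, so no direction can be given for it. Osgin1, an NRF2-induced growth inhibitor gene, had -0.36, -0.50 and -0.37 in KO LPS and 0.92, 0.88 and 0.67 in KO PBS, and -0.35, -0.37 and -0.50 in WT LPS and 0.80, 0.78 and 0.82 in WT PBS. The LPS arrays lay far below the PBS arrays, and Osgin1 fell by 1.23 ± 0.07 in KO cells and by 1.20 ± 0.07 in WT cells. Sqstm1 encodes p62, an autophagy receptor that binds KEAP1. Its values were 7.85 to 7.87 in KO LPS and 7.96 to 8.16 in KO PBS, and 7.82 to 7.98 in WT LPS and 7.77 to 7.97 in WT PBS. The KO change was -0.22 (adjusted p = 0.0128, limma), and with the slide as a term it was -0.10 (adjusted p = 0.327).

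Keap1, the repressor of NRF2, was the member whose LPS change was called different between genotypes on the probe that stands for each gene. Its values were 1.43, 1.48 and 1.34 in KO LPS and 2.38, 2.42 and 2.20 in KO PBS, and 2.05, 2.01 and 1.95 in WT LPS and 2.22, 2.19 and 2.27 in WT PBS. LPS and PBS arrays did not overlap in either genotype, and the KO LPS arrays lay below all others. Keap1 fell by 0.91 ± 0.06 in KO cells (adjusted p = 1.6e-07, limma) and by 0.22 ± 0.06 in WT cells (adjusted p = 0.00822). The difference between these changes, KO minus WT, was -0.69 ± 0.09 (adjusted p = 6.7e-04). It was called in all 22 alternatives, at -0.76 to -0.55, and was smallest with the slide as a term. In that difference 0 of 39 members were called higher and 1 lower (2.56%), against 0.926% and 3.39% of all genes tested, or 4.31% in either direction. The count is less stable than Keap1 itself, since 7 members were called lower without KO PBS replicate 3, and with replicate number as a block Srxn1 (0.29, adjusted p = 0.0365, limma) and Cat (0.31, adjusted p = 0.0343) were called higher. The shares of all genes called in those fits are not given here, so neither count is read as an excess in the list. Keap1 was measured by 1 kept probe. The dimmer probe of Prdx2 was also called in this difference, at -0.37 ± 0.09 (adjusted p over probes = 0.0375, limma). Its brighter probe, at -0.12, was not.

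**Figure D2:**
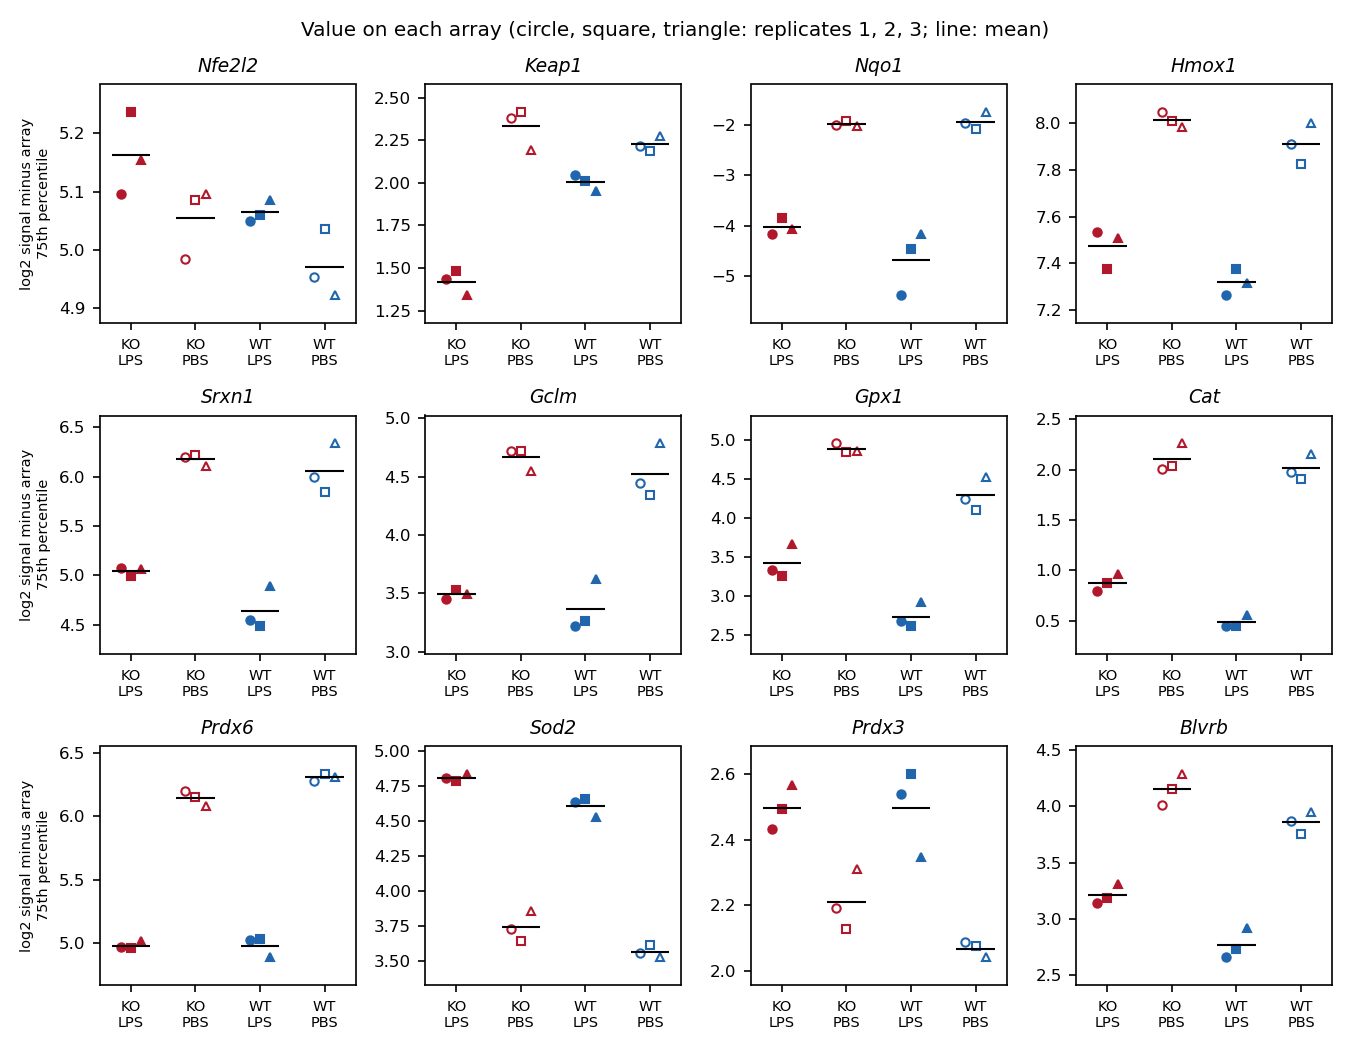
Each panel shows one gene on all 12 arrays, as log2 signal minus the 75th percentile of the array. Groups run KO LPS, KO PBS, WT LPS and WT PBS, symbols mark replicates 1 to 3 and lines are group means. Keap1 is lowest on the 3 KO LPS arrays, at 1.34 to 1.48, and the y axes differ between panels.

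Haem and quinone genes fell and the ferritin genes did not, on their brightest probes. Nqo1, the quinone reductase often used as a marker of NRF2 activity, had the largest change of the list. Its values were -4.17, -3.85 and -4.06 in KO LPS and -2.0, -1.92 and -2.02 in KO PBS, and -5.39, -4.47 and -4.17 in WT LPS and -1.97, -2.09 and -1.74 in WT PBS. No LPS array came near a PBS array. The probe was well above background on 2 of 3 KO LPS arrays, where the change was -2.05 ± 0.25 (adjusted p = 2.1e-05, limma), and on 0 of 3 WT LPS arrays, so that Nqo1 was at least 4.06-fold lower in WT LPS than in WT PBS (adjusted p = 1.5e-06). A fold of this kind is a lower bound, in which the dim arrays count at the weakest signal that still passed background.

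Hmox1, which opens the haem ring, had 7.54, 7.38 and 7.51 in KO LPS and 8.05, 8.01 and 7.98 in KO PBS, and 7.26, 7.38 and 7.32 in WT LPS and 7.91, 7.83 and 8.0 in WT PBS. All LPS arrays lay below all PBS arrays. The change was -0.54 ± 0.06 in KO cells and -0.59 ± 0.06 in WT cells (adjusted p = 7.9e-06 and 3e-06, limma). Blvrb, which reduces biliverdin and flavins, fell by 0.94 ± 0.09 in KO cells and by 1.09 ± 0.09 in WT cells. Fth1, the ferritin heavy chain, changed by 0.11 ± 0.05 in KO cells, which was not called, and by 0.16 ± 0.05 in WT cells (adjusted p = 0.0201). The WT call was lost without WT PBS replicate 3, WT LPS replicate 2 or WT LPS replicate 3, and under quantile normalization the change was 0.00. Ftl1, the light chain, had 0.03 ± 0.05 in KO cells and 0.08 ± 0.05 in WT cells on its brighter probe. Its dimmer probe fell, by 0.86 ± 0.06 in KO cells and by 0.72 ± 0.06 in WT cells, so the gene's direction depends on the probe.

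All 4 genes of glutathione synthesis and recycling fell in both genotypes. Gclm encodes the modifier subunit of glutamate-cysteine ligase, the enzyme that sets the rate of glutathione synthesis. Its values were 3.45, 3.53 and 3.50 in KO LPS and 4.72, 4.72 and 4.55 in KO PBS, and 3.22, 3.26 and 3.62 in WT LPS and 4.44, 4.34 and 4.79 in WT PBS. Replicate 3 was the highest in both WT groups, and the groups did not overlap. Gclm fell by 1.17 ± 0.12 in KO cells and by 1.16 ± 0.12 in WT cells. Gclc, the catalytic subunit, fell by 0.66 ± 0.10 in KO cells and by 0.70 ± 0.10 in WT cells. Gss, which adds glycine in the second step, had 0.88, 0.87 and 0.93 in KO LPS and 2.27, 2.21 and 1.99 in KO PBS, and 0.60, 0.72 and 0.71 in WT LPS and 1.79, 1.67 and 1.94 in WT PBS. It fell by 1.26 ± 0.08 in KO cells and by 1.13 ± 0.08 in WT cells (adjusted p = 1e-07 and 2e-07, limma). Gsr, which reduces oxidised glutathione, fell less, by 0.22 ± 0.07 in KO cells and by 0.38 ± 0.07 in WT cells. With the slide as a term its KO change was -0.14 (adjusted p = 0.235), and it also lost its KO call without KO PBS replicate 1, KO LPS replicate 1 or KO LPS replicate 2.

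Of the enzymes that use glutathione, 6 of 6 fell in KO cells and 5 of 6 in WT cells. Gpx1, the cytosolic glutathione peroxidase, had 3.33, 3.26 and 3.66 in KO LPS and 4.96, 4.84 and 4.85 in KO PBS, and 2.68, 2.61 and 2.92 in WT LPS and 4.25, 4.11 and 4.53 in WT PBS. LPS and PBS arrays were far apart in each genotype, with changes of -1.47 ± 0.12 in KO cells and -1.56 ± 0.12 in WT cells. Gpx4, the peroxidase of membrane lipid hydroperoxides, fell by 0.97 ± 0.07 in KO cells and by 0.98 ± 0.07 in WT cells. The microsomal transferase Mgst1 fell by 1.07 ± 0.06 in KO cells and by 0.82 ± 0.06 in WT cells. The cytosolic glutathione transferases Gstp1 and Gstm1 fell too, Gstp1 by 0.97 ± 0.12 in KO cells and 1.02 ± 0.12 in WT cells, and Gstm1 by 0.46 ± 0.06 in KO cells and 0.21 ± 0.06 in WT cells. Gpx3, the secreted peroxidase, had -3.58, -3.34 and -3.2 in KO LPS and -2.69, -2.71 and -2.91 in KO PBS, and -2.91, -2.87 and -2.24 in WT LPS and -2.32, -2.60 and -1.98 in WT PBS. The KO groups did not overlap, the WT groups did, and replicate 3 was the highest in each WT group. Its KO change was -0.61 ± 0.21 (adjusted p = 0.021, limma), lost with the slide as a term (-0.47, adjusted p = 0.208) and without KO PBS replicate 1, KO PBS replicate 2 or KO LPS replicate 1. The WT change was -0.37 ± 0.21, and without WT LPS replicate 3 it was -0.59 (adjusted p = 0.0177).

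The thioredoxin system was mixed. Srxn1, which repairs over-oxidised peroxiredoxins, had 5.07, 4.99 and 5.07 in KO LPS and 6.20, 6.22 and 6.11 in KO PBS, and 4.55, 4.48 and 4.89 in WT LPS and 6.0, 5.84 and 6.34 in WT PBS. It fell by 1.13 ± 0.12 in KO cells and by 1.42 ± 0.12 in WT cells, with no overlap. Txn1, the cytosolic thioredoxin, had 6.38, 6.39 and 6.37 in KO LPS and 6.04, 6.07 and 6.19 in KO PBS, and 6.26, 6.36 and 6.05 in WT LPS and 5.94, 5.90 and 5.83 in WT PBS. It rose by 0.28 ± 0.07 in KO cells and by 0.34 ± 0.07 in WT cells. The KO call was lost with the slide as a term (0.19, adjusted p = 0.127, limma) and under quantile normalization (0.08, adjusted p = 0.273). Txnrd2, the mitochondrial thioredoxin reductase, had 2.00, 2.14 and 2.16 in KO LPS and 1.96, 2.02 and 1.80 in KO PBS, and 2.08, 1.99 and 2.13 in WT LPS and 1.91, 1.87 and 1.84 in WT PBS. The KO groups overlapped and the WT groups did not, with changes of 0.17 ± 0.07 in KO cells (adjusted p = 0.035, limma) and 0.20 ± 0.07 in WT cells (adjusted p = 0.0205).

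Txn2, the mitochondrial thioredoxin, had 4.04, 4.06 and 4.09 in KO LPS and 4.08, 4.06 and 3.93 in KO PBS, and 4.25, 4.36 and 4.27 in WT LPS and 4.07, 4.09 and 3.94 in WT PBS. The KO groups overlapped, with a change of 0.04 ± 0.06, and in WT cells the gene rose by 0.26 ± 0.06. The dimmer probe rose in both, by 0.32 ± 0.08 in KO cells (adjusted p over probes = 0.00559, limma) and by 0.26 ± 0.08 in WT cells. The mean over probes (0.18, adjusted p = 0.0105) and the arrays of 1 slide (0.14, adjusted p = 0.027) also gave a call in KO cells, so Txn2 is not shown to rise in WT cells alone. Under quantile normalization Txn1, Txn2 and Txnrd2 kept positive changes of 0.05 to 0.09 in WT cells and none was called. The Txnrd2 call was also lost without KO PBS replicate 1 or 3 or KO LPS replicate 2 or 3 in KO cells, and without WT PBS replicate 3 or WT LPS replicate 1 or 3 in WT cells. Txnrd1, the cytosolic reductase, had -0.13 ± 0.08 in KO cells and -0.15 ± 0.08 in WT cells, neither called. Its dimmer probe was called lower in both, at -0.17 ± 0.07 in KO cells (adjusted p over probes = 0.0382, limma) and -0.26 ± 0.07 in WT cells (0.00515). Quantile normalization also gave calls in both, at -0.32 in KO cells and -0.42 in WT cells, and with replicate number as a block the WT change passed (adjusted p = 0.0482), whereas with the slide as a term the KO change was 0.02. Txnip, an inhibitor of thioredoxin, fell by 0.21 ± 0.05 in KO cells, and its WT change was -0.03 ± 0.05. Under quantile normalization the WT change was -0.24 and was called.

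Of the 6 peroxiredoxin genes, 3 fell in both genotypes. Prdx6, which also reduces phospholipid hydroperoxides, had 4.97, 4.96 and 5.01 in KO LPS and 6.20, 6.16 and 6.08 in KO PBS, and 5.02, 5.03 and 4.89 in WT LPS and 6.28, 6.33 and 6.31 in WT PBS. It fell by 1.17 ± 0.05 in KO cells and fell by 1.33 ± 0.05 in WT cells (adjusted p = 4.2e-09 and 1.2e-09, limma). The cytosolic Prdx1 fell by 0.66 ± 0.05 in KO cells and by 0.64 ± 0.05 in WT cells, and Prdx2 by 0.44 ± 0.05 in KO cells and 0.31 ± 0.05 in WT cells. Prdx3, the mitochondrial form, rose. It had 2.43, 2.49 and 2.57 in KO LPS and 2.19, 2.13 and 2.31 in KO PBS, and 2.54, 2.60 and 2.35 in WT LPS and 2.09, 2.07 and 2.04 in WT PBS. The change was 0.29 ± 0.07 in KO cells, and 0.19 with the slide as a term (adjusted p = 0.103, limma). It was 0.43 ± 0.07 in WT cells. Prdx5 had -0.14 ± 0.07 in KO cells and 0.09 ± 0.07 in WT cells, neither called. Under quantile normalization it was called lower in both, at -0.32 in KO cells and -0.20 in WT cells. The KO change was also called with the replicate block and without KO PBS replicate 3 or WT PBS replicate 3, and with the slide as a term it was -0.02.

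Prdx4, the form of the endoplasmic reticulum, showed the widest spread of the peroxiredoxins in WT cells. It had 2.02, 2.10 and 2.00 in KO LPS and 2.38, 2.44 and 2.25 in KO PBS, and 1.97, 1.78 and 2.54 in WT LPS and 2.12, 1.96 and 2.62 in WT PBS. Replicate 3 was the highest array in both WT groups. Its change was -0.32 ± 0.19 in KO cells and -0.13 ± 0.19 in WT cells, not called, with an error shared by all 4 groups. The KO groups did not overlap, and with only those groups in the fit the KO change was called (adjusted p = 0.00208, limma), as it was on the arrays of 1 slide (-0.21, adjusted p = 0.0122). With replicate number as a block, the WT change had an adjusted p of 0.0246 and the KO change one of 2.1e-04. The summed level of erythroid markers also set WT replicate 3 apart, at 76.8 in LPS and 81.1 in PBS, against 224 to 287 on the other WT arrays, and its part in these values was not tested.

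The enzymes that act directly on superoxide and hydrogen peroxide went different ways. Sod2, the manganese superoxide dismutase of mitochondria and a known NF-kB target, had 4.80, 4.79 and 4.83 in KO LPS and 3.73, 3.64 and 3.86 in KO PBS, and 4.64, 4.66 and 4.53 in WT LPS and 3.56, 3.62 and 3.53 in WT PBS. All LPS arrays lay above all PBS arrays, and the rise was 1.06 ± 0.06 in KO cells and 1.04 ± 0.06 in WT cells (adjusted p = 2.1e-08 and 2e-08, limma). It was the only member to rise at least 2-fold, in either genotype. Cat, catalase, had 0.79, 0.88 and 0.96 in KO LPS and 2.00, 2.04 and 2.27 in KO PBS, and 0.45, 0.44 and 0.56 in WT LPS and 1.98, 1.91 and 2.16 in WT PBS. It fell by 1.23 ± 0.08 in KO cells and fell by 1.53 ± 0.08 in WT cells. Sod1, the cytosolic copper-zinc enzyme, had -0.12 ± 0.06 in KO cells and 0.01 ± 0.06 in WT cells, not called. Under quantile normalization it was called in both, at -0.32 in KO cells and -0.26 in WT cells. The KO change was also called with normexp background correction (-0.21), with the replicate block and without KO PBS replicate 3 (-0.18), and with the slide as a term it was 0.00.

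NADPH supply fell except for Tkt. G6pdx and Pgd, the enzymes of the pentose phosphate pathway that make NADPH, fell by 0.65 ± 0.05 and 0.90 ± 0.08 in KO cells and by 0.52 ± 0.05 and 0.98 ± 0.08 in WT cells. Taldo1, the transaldolase, fell by 0.74 ± 0.06 in KO cells and by 0.91 ± 0.06 in WT cells. Me1, cytosolic malic enzyme, fell by 0.90 ± 0.09 in KO cells and by 1.19 ± 0.09 in WT cells. Tkt, the transketolase, had -0.14 ± 0.06 in KO cells and 0.11 ± 0.06 in WT cells, not called. The WT change was called higher with the slide as a term (adjusted p = 0.0306, limma) and without KO PBS replicate 3. Under quantile normalization the KO change was called lower, at -0.28 (adjusted p = 0.00294), and with the slide as a term it was 0.02.

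**Figure D3:**
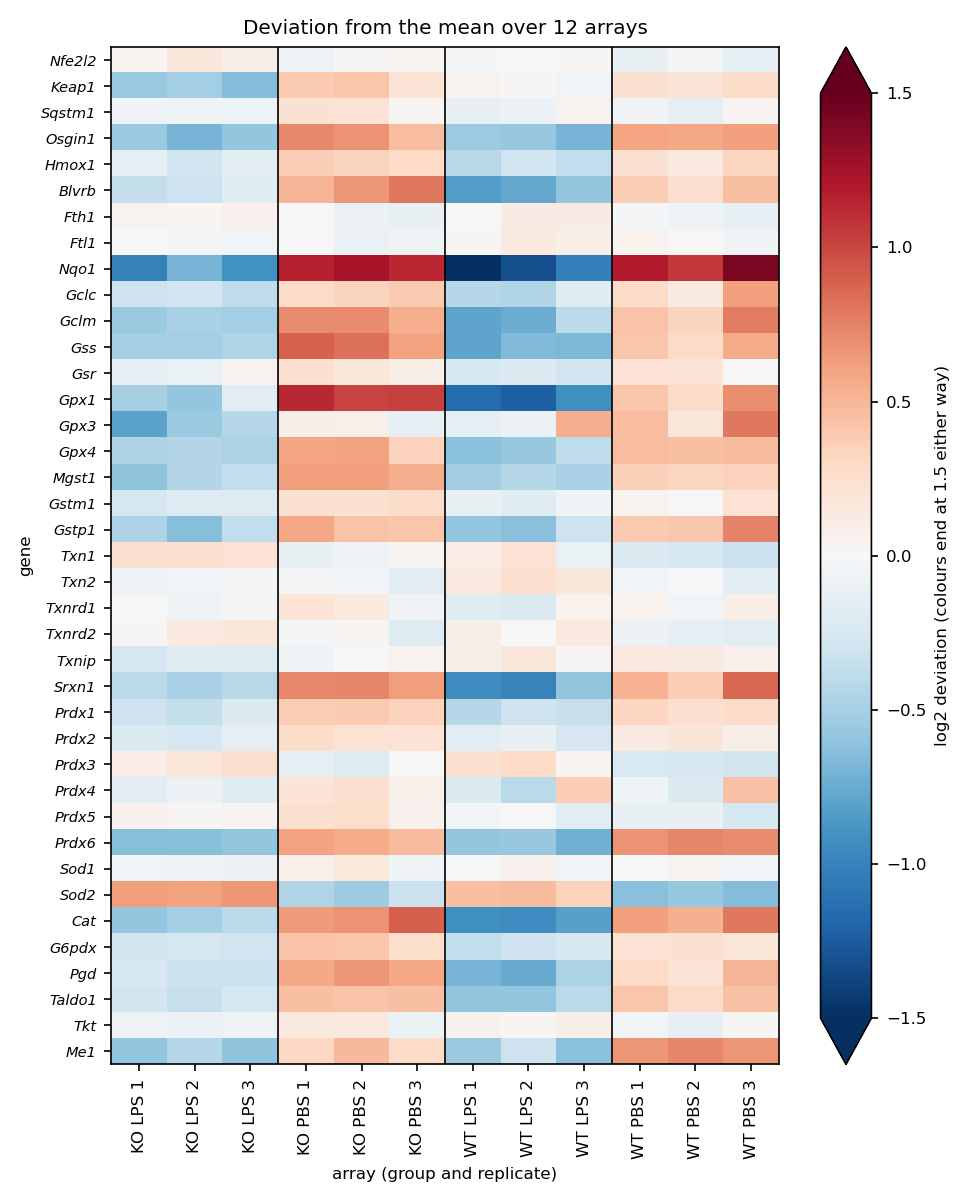
Rows are the 39 members tested and columns the 12 arrays, in the order KO LPS, KO PBS, WT LPS and WT PBS. Colour gives the log2 deviation from the gene's mean over 12 arrays. Nqo1, Gpx1, Srxn1 and Cat are red on the PBS arrays and blue on the LPS arrays, Sod2 shows the opposite, and WT replicate 3 stands out in Prdx4 and Gpx3.

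The second comparison asks how KO cells differed from WT cells without LPS. The called differences were all below 2-fold. Of 39 members, 5 were higher in KO cells (12.8%) and 1 lower (2.56%), against 8.06% and 6.05% of all genes tested (14.1% in either direction), and the median change was 0.09, against 0.01 over all genes tested. With quantile normalization 4 were higher and 3 lower. Markers differed between the genotypes as well: of those tested, 4 of 8 B-cell markers were lower in KO PBS (Vpreb3 by -1.29) and 2 of 10 macrophage markers higher, Adgre1 by 0.40 and Itgam by 0.28. Of 5 neutrophil markers tested, 2 were higher, S100a9 by 2.64 and Camp by 0.38. S100a8 was not called (0.77, adjusted p = 0.165, limma). Of 6 T-cell markers 2 were lower, Cd3d (-0.76) and Cd3g (-0.55), and of 6 mast-cell markers 1 was lower, Mcpt4 (-0.47). The part of these marker differences in the members' values was not tested. Gpx1, whose values are given above, was higher in KO PBS than in WT PBS on every array, by 0.59 ± 0.12 (adjusted p = 0.00907, limma). Gss was higher by 0.35 ± 0.08 (adjusted p = 0.0162), and lost its call when any of WT PBS replicates 1 or 2 or KO PBS replicates 1 or 2 was left out.

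Prdx5, a peroxiredoxin of mitochondria and peroxisomes, had 6.59, 6.61 and 6.41 in KO PBS and 6.24, 6.23 and 6.08 in WT PBS. The groups did not overlap, and the difference was 0.35 ± 0.07 (adjusted p = 0.00499, limma). Mgst1 was higher by 0.26 ± 0.06 (adjusted p = 0.013). Blvrb had 4.01, 4.16 and 4.29 in KO PBS and 3.87, 3.76 and 3.95 in WT PBS, a difference of 0.29 ± 0.09 (adjusted p = 0.0424). Me1 had 0.81, 0.98 and 0.76 in KO PBS and 1.15, 1.22 and 1.16 in WT PBS, a difference of -0.33 ± 0.09 (adjusted p = 0.0289). On slide 1 alone, with KO PBS replicates 1 and 2, Blvrb gave 0.23 (adjusted p = 0.164) and Me1 -0.29 (adjusted p = 0.114), so neither call was kept there. Gpx1, Mgst1 and Prdx5 kept their calls under every alternative and with each array left out. Prdx5 had no called difference after LPS, at 0.12 ± 0.07 (adjusted p = 0.167).

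After LPS, 7 of 39 members were higher in KO cells (17.9%) and 4 lower (10.3%), against 20.0% and 19.5% of all genes tested (39.5% in either direction), with a median change of 0.03 against -0.01. With quantile normalization 12 were higher and 4 lower. Every KO LPS array lay on slide 2 and every WT LPS array on slide 1, so slide and genotype cannot be told apart within it, and the fit with a slide term rests on KO PBS replicate 3. With that term, 1 member was higher and 2 were lower. Of the markers, 5 of 8 for B cells were lower in KO LPS (Vpreb3 by -1.38). Higher were 3 of 10 macrophage markers, Adgre1 (0.32), Itgam (0.53) and Csf1r (0.43). Of 5 neutrophil markers, 2 were higher, S100a9 (2.33) and Elane (0.90), and S100a8 was not called (-0.16). Of 6 T-cell markers 3 were lower, Cd3d (-0.46), Cd2 (-0.40) and Lck (-0.32), and 1 was higher, Cd247 (1.22). Of 6 mast-cell markers 2 were lower, Mcpt4 (-0.43) and Cma1 (-0.39).

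The higher members were Gpx1 (0.68 ± 0.12), Blvrb (0.44 ± 0.09), Srxn1 (0.40 ± 0.12), Cat (0.39 ± 0.08), Pgd (0.35 ± 0.08), Taldo1 (0.23 ± 0.06) and Sod2 (0.20 ± 0.06). None of the 7 kept its call with the slide term, where Gpx1 had 0.73 (adjusted p = 0.0998, limma), Srxn1 0.50 (0.228), Pgd 0.38 (0.181), Taldo1 0.22 (0.239), Blvrb 0.24 (0.353), Cat 0.15 (0.517) and Sod2 0.04 (0.843). The first 4 were about as large as without the term, and the others smaller. Blvrb had 3.14, 3.19 and 3.31 in KO LPS and 2.66, 2.73 and 2.92 in WT LPS, with no overlap. Gss, at 0.22 ± 0.08 without the term, was the member called higher with it, at 0.48 (adjusted p = 0.0441).

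The lower members were Gpx3 (-0.70 ± 0.21), Keap1 (-0.58 ± 0.06), Txnip (-0.30 ± 0.05) and Txn2 (-0.23 ± 0.06). Keap1 and Txnip kept their calls under every alternative. With the slide term Keap1 had -0.38 (adjusted p = 0.0287, limma) and Txnip -0.38 (adjusted p = 0.0241). Txnip had 4.16, 4.23 and 4.23 in KO LPS and 4.50, 4.58 and 4.44 in WT LPS, with no overlap. Gpx3 lost its call without WT LPS replicate 3 or KO LPS replicate 1. The second probe of Txn2 gave 0.08 ± 0.08 in this comparison, so its lower value rests on the brighter probe. Prdx6 had 0.00 ± 0.05 on its brighter probe and -0.42 ± 0.09 on the dimmer one (adjusted p over probes = 0.00381). The dimmer probes of Me1 (-0.43 ± 0.13), Gstm1 (-0.28 ± 0.09) and Prdx2 (-0.22 ± 0.06) were called lower too. Their adjusted p over probes was 0.0252, 0.0306 and 0.0138 (limma), and their brighter probes were not called.

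**Figure D4:**
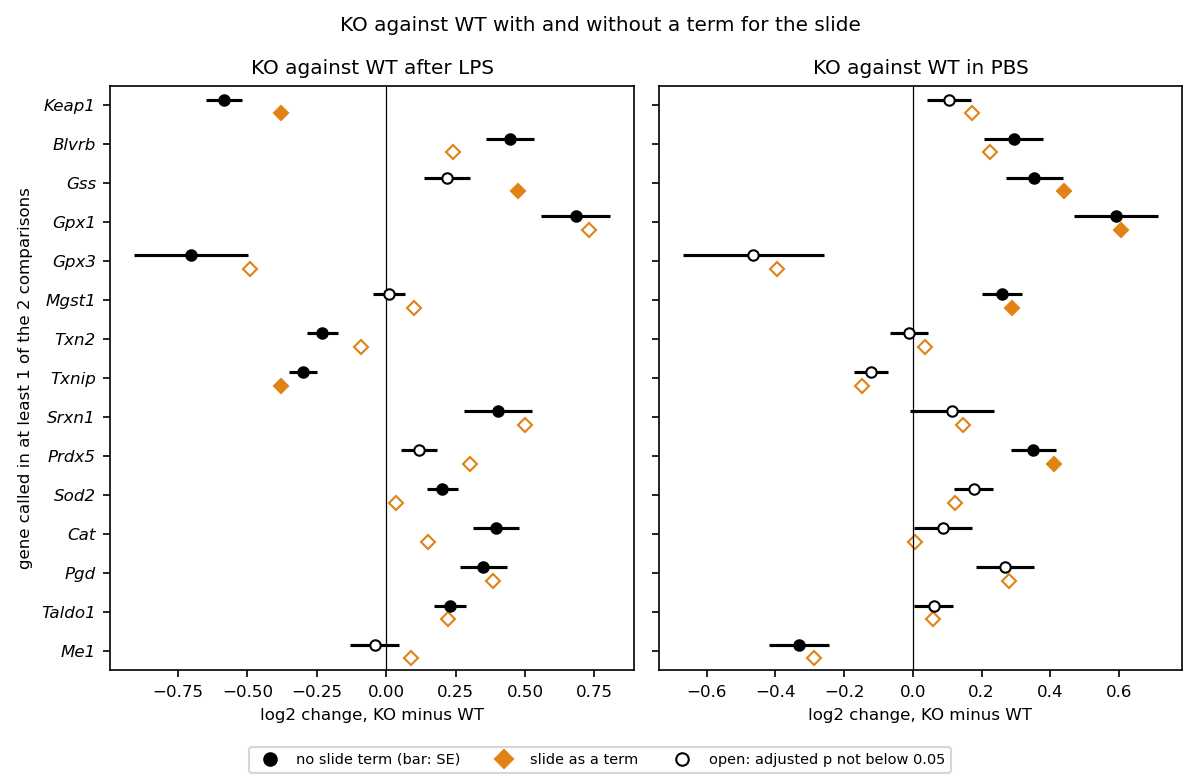
The x axes give the log2 change, KO minus WT, after LPS (left) and in PBS (right) for the 15 members called in at least 1 of these comparisons. Black circles with standard errors are from the fit without a slide term, orange diamonds from the fit with it, and open symbols did not pass an adjusted p of 0.05. After LPS, Keap1 and Txnip stay filled on the lower side and Gss becomes filled on the higher side.

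A further list of 90 genes of the same pathway, of which 80 were tested, was read beside the members. It holds NRF2 partners, transporters, other glutathione enzymes, iron genes and the NADPH oxidase subunits. With LPS, 44 of 80 fell (55.0%) and 20 rose (25.0%) in KO cells, against 32.0% and 35.1% of all genes tested, and 35 fell (43.8%) and 23 rose (28.8%) in WT cells, against 31.0% and 33.7%, with median changes of -0.26 and -0.14. The largest rises in KO cells were those of Tfrc (1.79 ± 0.07), the transferrin receptor, Maff (1.63 ± 0.08), a small MAF partner of NRF2, and Chac1 (1.1 ± 0.07), which degrades glutathione. In WT cells they were those of Tfrc (1.79 ± 0.07), Bach1 (1.62 ± 0.10), a repressor that competes with NRF2 at its elements, and Chac1 (1.31 ± 0.07). The largest falls in KO cells were those of Slc40a1 (-3.39 ± 0.45), the iron exporter ferroportin, Mgst2 (-2.64 ± 0.14) and Gsta3 (-2.28 ± 0.30), both glutathione enzymes. In WT cells they were those of Slc40a1 (-3.75 ± 0.45), Gsta3 (-2.85 ± 0.30) and Pir (-2.35 ± 0.25), which encodes pirin. Slc40a1 was well above background on 2 of 3 KO LPS arrays and 1 of 3 WT LPS arrays, and Pir on 2 of 3 WT LPS arrays, so the sizes of these falls are uncertain. Mgst2, well above background throughout, followed Pir closely in WT cells at -2.30 ± 0.14.

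The LPS changes of 5 of 80 genes of the further list (6.25%) differed between genotypes, against 4.31% of all genes tested. Maff rose more in KO cells (difference 0.82 ± 0.11, adjusted p = 8.7e-04, limma), and Bach1 rose less, by 1.06 in KO cells and 1.62 in WT cells (difference -0.56 ± 0.14, adjusted p = 0.0438). The partner Mafk (-0.42 ± 0.11) and the reductase Txnrd3 (-0.35 ± 0.09) also rose less in KO cells. Selenow, a small selenoprotein, rose by 0.51 in WT cells and had -0.11 in KO cells (difference -0.61 ± 0.09). These values come from the fit without a slide term. Between genotypes in PBS, 10 of 80 were higher in KO cells (12.5%, against 8.06% of all genes), led by Ncf1 (0.50 ± 0.15), an NADPH oxidase subunit, Gstk1 (0.45 ± 0.13) and the quinone reductase Nqo2 (0.44 ± 0.10), and 3 were lower (3.75%, against 6.05%), Sesn1 (-0.39 ± 0.08), Maff (-0.35 ± 0.08) and Akr1b8 (-0.33 ± 0.09). After LPS 19 of 80 were higher (23.8%, against 20.0% of all genes), led by the conjugate exporter Abcc3 (1.03 ± 0.17), Aldh3a1 (0.98 ± 0.19) and Gstk1 (0.68 ± 0.13). In the same comparison 14 were lower (17.5%, against 19.5%), led by Gstm2 (-0.60 ± 0.18), Selenow (-0.49 ± 0.07) and the epoxide hydrolase Ephx1 (-0.48 ± 0.13), on arrays of separate slides.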

How the data were processed

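Total RNA of each of the 12 samples was labelled with Cy3 and hybridised to 1 array. The deposited files hold spot intensity per the file headers, processed with Agilent Feature Extraction 11.5.1.1 per the submitters' processing notes, background-subtracted and not scaled between arrays. Groups and replicate numbers came from the sample titles.

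The processed intensity was put on the log2 scale, less the 75th percentile of each array's 59305 non-control spots. Marked spots (76 to 125 an array) were left out and the spots of a probe averaged. Of 56605 probes, 32994 (58.3%) were named through RefSeq accessions, and 28827 were kept. Of the members, 25 had 1 kept probe and 14 several. One mean per group was fitted over 12 arrays in limma 3.58.1 (R 4.3.3, eBayes with trend), two-sided, with Benjamini-Hochberg adjustment over 13283 genes and a threshold of 0.05. The precision is limited by the number of arrays. The members, the further pathway list, the marker lists and the tests were chosen with earlier results of these data known. All 40 members were to be named, with values on each array for Nfe2l2, Keap1, Hmox1, Nqo1 and the 4 largest called rises and falls of a comparison, and 3 of each from the further list.

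The steps were tested on simulated data (24 runs, 13283 genes): of 2-fold changes, the LPS comparison in WT found 90.2% and the interaction 79.5%. Of 1.5-fold changes, the interaction found 53.0%, and KO against WT found 67.8% in PBS and 69.85% after LPS. A difference between genotypes that was not called can therefore still be of that size. Residuals of WT arrays with equal replicate numbers correlated across treatments at 0.105, 0.371 and 0.481. In KO cells the values were 0.04, 0.113 and 0.081. The reported fit had no term for replicate number and paired no arrays. In the replicate block, LPS and PBS arrays of equal number shared a term within each genotype. For KO against WT, the block gave all arrays of equal number a shared term. Alternatives were normexp background correction with an offset of 50, applied to median spot intensity since mean intensity was not used here, 2 other scalings, 2 filters on dim probes, the mean over probes, no variance trend, only the groups compared, the slide as a term, arrays of 1 slide, the replicate block, and each array left out.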

Additional observations from a re-analysis of the deposited data

Results flagged for a closer look

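The LPS change of Keap1 differed between genotypes by a test of the difference itself. It was -0.91 ± 0.06 in KO cells and -0.22 ± 0.06 in WT cells, a difference of -0.69 ± 0.09 on the log2 scale (limma, adjusted p = 6.7e-04). All 3 KO LPS arrays lay below the other 9. The KO LPS arrays share slide 2 with KO PBS replicate 3 alone, and with the slide as a term the difference was -0.55 (adjusted p = 0.00363). Without KO PBS replicate 3, the lowest KO PBS array, it was -0.76 (adjusted p = 8.3e-05). Keap1 rests on 1 probe.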

How the results depend on the processing

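The falls with LPS held best: 22 of the 23 members lower in both genotypes were called lower in both under all alternatives that tested them, and Nqo1 was not tested where a probe had to be well above background on all 12 arrays. The number of arrays and the slide layout limit the comparisons of KO with WT.

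Quantile normalization left 2 members higher with LPS in KO cells and 2 in WT cells, and gave 3 lower in KO PBS and 12 higher in KO LPS against WT. Under it the WT LPS changes turned to -0.16 for Nfe2l2, -0.21 for Sqstm1, -0.20 for Prdx5 and -0.26 for Sod1. The mean over probes gave Ftl1 -0.42 in KO cells and -0.32 in WT cells with LPS, because its probes differ, and 2 members lower in KO PBS. With the slide as a term, 2 members were higher with LPS in KO cells, 0 lower in KO PBS, and 1 higher and 2 lower in KO LPS against WT. Arrays of 1 slide gave 0 lower in KO PBS. With only the groups compared, 3 were higher in KO PBS. The cause of these moves was not tested.

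With replicate number as a block, 30 members fell with LPS in KO cells and 25 in WT cells, and the LPS changes of 2 members were higher in KO than in WT cells, Srxn1 by 0.29 (adjusted p = 0.0365, limma) and Cat by 0.31 (adjusted p = 0.0343). In WT cells it changed no LPS call but those of Txnrd1 and Prdx4. In KO cells each array correlated best with the one of its own number, and in WT cells replicates 2 and 3 did. That is a hint from the data and not from the design. Residuals of KO and WT arrays of equal number correlated at -0.102 to 0.017, and none was the best match. The block still gave such arrays a shared term in KO against WT. There it called 6 members higher and 1 lower in PBS, and 7 higher and 4 lower after LPS.

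Leaving out each array in turn gave 23 to 30 members lower with LPS in KO cells and 23 to 25 in WT cells, and 3 to 4 higher in KO cells and 4 to 7 in WT cells. In KO PBS against WT PBS it gave 3 to 9 higher, with 3 without WT PBS replicate 1 or 2, 8 without WT PBS replicate 3 and 9 without WT LPS replicate 3. There were 0 to 2 lower, with 0 without WT PBS replicate 1 or 2 or KO PBS replicate 1 or 3 and 2 without WT LPS replicate 3. In KO LPS against WT LPS it gave 5 to 10 higher and 3 to 5 lower. For the difference in LPS change it gave 0 to 1 higher and 1 to 7 lower, with 2 lower without WT PBS replicate 3 and 7 without KO PBS replicate 3, which added G6pdx, Mgst1, Prdx5, Sqstm1, Tkt and Txn2 to Keap1. These counts stand without the share of all genes called in the same fits.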
